A study of Rattus norvegicus with 12 samples.

Results

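Barx2, Tfap2b, Tfec, Alx4 and Myod1, which encode transcription factors of different tissues, were examined in NRK cells, an established rat kidney line. These 5 genes, of 20842 in the table, were selected on measured values: each is in the study's lists of genes that differed between a knockout line and WT in these libraries, from which its symbol and identifier were taken. The identifiers are ENSRNOG00000008592 (Barx2), ENSRNOG00000011823 (Tfap2b), ENSRNOG00000061595 (Tfec), ENSRNOG00000000008 (Alx4) and ENSRNOG00000011306 (Myod1). Their differences between genotypes are therefore given as a description, with no test.

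RNA-seq counts were available for 3 genotypes, WT, VAMP7KO and ATG5KO, with 4 replicates each, numbered 1 to 4, from cells kept in complete growth medium with no treatment. VAMP7 is a SNARE protein of vesicle fusion, and ATG5 is needed to build autophagosomes. The knockout lines were made with CRISPR-Cas9 and grown from single sorted GFP-positive cells, so each is a clone, and what belongs to the clone and what belongs to the lost gene cannot be told apart. The RNA of 1 dish, 600 ng of it, went into each library through a stranded polyA kit, and libraries held 21090858 to 31525111 counts. Levels below are CPM, the counts scaled to a common library size with TMM factors, with the SD over 4 replicates. A library with 3 counts or fewer was taken to be at the floor, which was 0.0985 to 0.139 CPM, and a fold against a genotype with all libraries at the floor is a lower bound that covers counting error only. In bulk RNA, fewer cells that express a gene and less RNA per cell cannot be told apart.

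Barx2 is a homeobox factor of muscle and epithelia. Tfap2b encodes AP-2 beta, a factor of the neural crest and the distal kidney tubule. Tfec belongs to the MiT family of basic helix-loop-helix leucine zipper factors, with Mitf, Tfeb and Tfe3, which act on pigment and lysosome genes and bind short palindromes called E-boxes. Alx4 is a paired-type homeobox factor of skull and limb mesenchyme. Myod1 is the basic helix-loop-helix factor that starts the skeletal muscle program and can turn fibroblasts into muscle cells. Lineage factors of this kind are expressed in few tissues and silent in most others.

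The 5 genes fell into 3 patterns. Tfap2b and Tfec were detected in WT and were at the floor in both knockout lines. Alx4 was detected in ATG5KO and at the floor elsewhere. Barx2 and Myod1 were detected in WT and ATG5KO and were at the floor in VAMP7KO, Barx2 with its higher level in WT and Myod1 with its higher level in ATG5KO. VAMP7KO was at the floor for all 5.

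**Figure D1:**
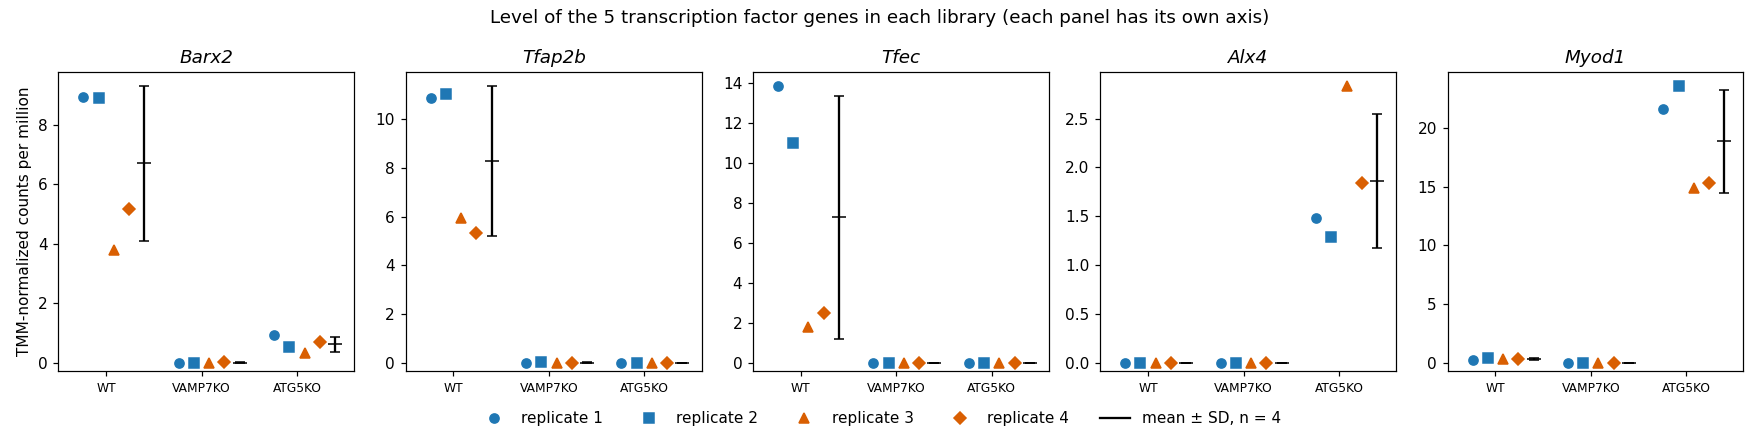
Level of each of the 5 genes in every library, in CPM on a linear axis that differs between panels. Points are libraries, with replicates 1 and 2 in blue and 3 and 4 in orange, and the bar is the mean ± SD of the 4 replicates. Tfap2b and Tfec are seen in WT, Alx4 in ATG5KO, and no VAMP7KO library rises off the baseline in any panel.

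Tfap2b had 321, 319, 181 and 149 counts in WT replicates 1 to 4, which is 10.8, 11.04, 5.95 and 5.31 CPM (mean 8.28 ± 3.08). A single count was recorded over the 4 VAMP7KO libraries, in replicate 2, and ATG5KO had 0 counts in every library. The lowest WT library thus lay far above all 8 knockout libraries, and the WT mean was at least 70.9-fold above VAMP7KO and at least 67.7-fold above ATG5KO. The knockout lines cannot be ordered for Tfap2b, since both were at the floor.

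Tfec had, of the members, the widest relative range among the 4 WT libraries, with 410, 317, 54 and 69 counts, or 13.8, 10.97, 1.77 and 2.46 CPM (mean 7.26 ± 6.06). All 8 libraries of VAMP7KO and ATG5KO had 0 counts. Replicates 3 and 4 of WT were low for Tfec but were still clear of the floor. The WT mean was at least 62.1-fold above VAMP7KO and at least 59.4-fold above ATG5KO. Because WT was uneven, these bounds were 105-fold and 102-fold from replicates 1 and 2, and 18.3-fold and 17.2-fold from replicates 3 and 4.

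Tfec, the gene with this range, was also the member with an entry in the RefSeq promoter table. The 250 bases before its start, at chr4:46146201-46146450 on the minus strand of the GRCr8 build, are shown 5′ to 3′ with the homeodomain core TAAT, read on either strand, in capitals. The counts were made on another build with another annotation, so this start was not matched to the transcripts that were counted.
Tfec promoter: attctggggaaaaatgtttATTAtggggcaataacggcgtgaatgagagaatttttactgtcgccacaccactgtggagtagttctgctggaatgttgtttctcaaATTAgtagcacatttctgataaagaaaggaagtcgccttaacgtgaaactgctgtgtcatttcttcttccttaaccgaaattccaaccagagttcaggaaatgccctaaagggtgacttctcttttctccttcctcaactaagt
The core TAAT, the letters at the heart of many homeobox sites, was found at 2 places, with first bases at -231 and -144 relative to the start. It was present in 57% of 33469 RefSeq windows of the same length and position. The general E-box CANNTG, which covers the 3 E-box forms searched besides it, was not in the window and was in 65.5% of all windows. Of those forms, CACGTG and CATGTG, the usual MiT letters, were in 5.59% and 12.1% of all windows, and CAGCTG, a MyoD-type form, in 12% of them. The AP-2 letters GCCNNNGGC, found in 12.6% of all windows, were not in this window either. All letters were searched on both strands.

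Barx2 was detected in WT and, at a lower level, in ATG5KO. WT had 264, 257, 116 and 145 counts, or 8.91, 8.89, 3.81 and 5.17 CPM (mean 6.70 ± 2.61), and ATG5KO had 20, 16, 9 and 15 counts, or 0.929, 0.555, 0.323 and 0.691 CPM (mean 0.624 ± 0.253). VAMP7KO had 1 count in all, in replicate 4. The order was WT over ATG5KO over VAMP7KO, with no overlap between any pair of lines. WT was 10.7-fold above ATG5KO and at least 57.3-fold above VAMP7KO, and ATG5KO was at least 5.34-fold above VAMP7KO. Detection in ATG5KO rested on 60 counts over 4 libraries.

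Alx4 had 0 counts in all WT and all VAMP7KO libraries. In ATG5KO it had 32, 37, 79 and 40 counts, which is 1.49, 1.28, 2.84 and 1.84 CPM (mean 1.86 ± 0.69). Replicate 3 was the highest ATG5KO library, and the lowest was still 32 counts. The ATG5KO mean was at least 18.1-fold above WT and at least 15.9-fold above VAMP7KO.

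Myod1 was highest in ATG5KO, with 465, 681, 414 and 333 counts, or 21.6, 23.6, 14.9 and 15.3 CPM (mean 18.9 ± 4.41). WT held 7, 11, 9 and 8 counts, or 0.236, 0.381, 0.296 and 0.285 CPM (mean 0.299 ± 0.06), and VAMP7KO had 0 counts in every library. ATG5KO lay 62.9-fold above WT and at least 161-fold above VAMP7KO, without overlap. The low WT level was present in each WT library, and its mean was at least 2.56-fold above the VAMP7KO floor.

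All 5 genes were among the 13141 tested, but each had entered through the genotype in which it was high, so this number carries no weight. Of all genes tested, 12.3% were called lower and 10.5% higher in VAMP7KO against WT, and 22.7% were called lower and 23.6% higher in ATG5KO against WT, by edgeR's quasi-likelihood test with an adjusted p under 0.05. Against WT, 4 of the 5 genes lay lower in VAMP7KO without overlap, 3 lay lower in ATG5KO and 2 lay higher there. The shares above are of calls in a test, and the share of all genes without overlap was not counted. Since the genes were selected on these contrasts, which share the WT libraries, nothing was read from those counts. Counted over all genes tested, 48 genes (0.365%) were above the floor in every WT library and at it in all 8 knockout libraries, the pattern of Tfap2b and Tfec. The pattern of Alx4 was held by 66 genes (0.502%), and that of Barx2 and Myod1, above the floor in WT and ATG5KO and at it in VAMP7KO, by 31 genes (0.236%). The reverse, with VAMP7KO above the floor and WT and ATG5KO at it, was held by 2 genes.

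The replicates allowed a test that the selection had not used. Libraries of all genotypes separated by replicate number into a set of replicates 1 and 2 and a set of replicates 3 and 4, for which the labels give no reason, and earlier work on these libraries had already seen this division. The study's methods state that its differential expression was adjusted for a batch effect, without naming the batch, so whether the sets are that batch is not known. Within WT, 31.4% of the 13141 genes were called lower in replicates 3 and 4 than in 1 and 2, and 3 of the 4 members detected in WT were among them, Barx2, Tfap2b and Tfec. Tfec fell most, from 12.4 CPM in replicates 1 and 2 to 2.12 CPM in 3 and 4, by 2.55 on the log2 scale (SE 0.239, adjusted p = 5.47e-07, edgeR). A lower ratio than that of Tfec was found for 401 genes, 3.05% of those tested. Tfap2b fell by 0.96 (SE 0.191, adjusted p = 0.000522, edgeR) and Barx2 by 0.99 (SE 0.232, adjusted p = 0.00139, edgeR). Lower ratios than theirs were found for 14.9% and 14.4% of genes. Myod1 in WT had a log2 ratio of -0.08 (SE 0.447, adjusted p = 0.896, edgeR), with a wide error at 7 to 11 counts per library.

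In ATG5KO, 27.6% of genes were called lower in replicates 3 and 4, and of the 3 members detected there Myod1 was among them. Myod1 fell from 22.6 to 15.1 CPM, by 0.58 on the log2 scale (SE 0.135, adjusted p = 0.00192, edgeR). Barx2 in ATG5KO had a log2 ratio of -0.56 (SE 0.462, adjusted p = 0.333, edgeR), and Alx4 had one of 0.78 (SE 0.363, adjusted p = 0.0899, edgeR), with 1.38 CPM in replicates 1 and 2 and 2.34 CPM in 3 and 4. Alx4 was thus the member with a higher mean in the later-numbered libraries, short of the threshold. The set ratio in ATG5KO less that in WT was 0.43 for Barx2 (SE 0.53, adjusted p = 0.588, edgeR) and -0.50 for Myod1 (SE 0.476, adjusted p = 0.471, edgeR), so neither was shown to differ between the lines. In no line was a member at the floor in one set and above it in the other.

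**Figure D2:**
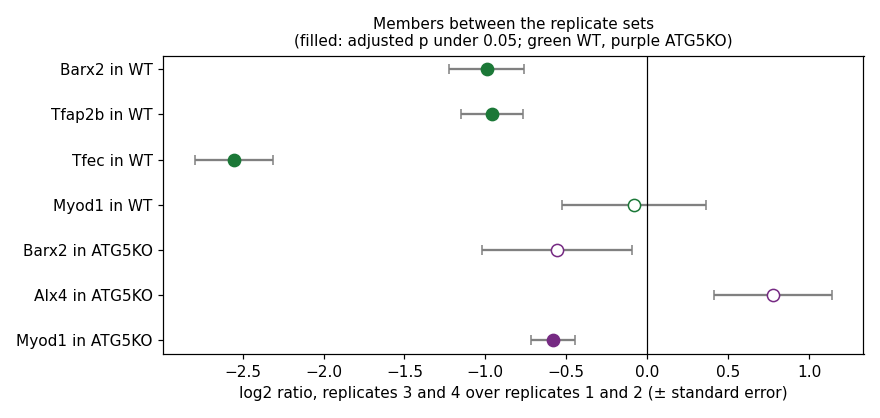
Log2 ratio of replicates 3 and 4 over replicates 1 and 2 for each member in a line where it was detected, with its standard error. Filled points had an adjusted p under 0.05 in edgeR's quasi-likelihood test over 13141 genes. Tfec in WT lies farthest from 0 at -2.55, and Alx4 in ATG5KO at 0.78 has an open point on the right side.

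Other genes with the members' patterns were compared between the same sets. Of the other 46 genes above the floor in WT alone, 25 were called lower and 2 higher in WT replicates 3 and 4, with a median log2 ratio of -0.96, which is also the ratio of Tfap2b. Of the 65 other genes above the floor in ATG5KO alone, 10 were called lower and 3 higher there, with a median of -0.25. The pattern of Barx2 and Myod1 was held by 29 other genes. In WT 13 of these were called lower and 2 higher, with a median of -1.075. In ATG5KO 9 of them were called lower and 3 higher, with a median of -0.38. The median over all genes tested was -0.01 in WT and -0.03 in ATG5KO.

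Myod1 was next set beside other skeletal muscle genes. A listed gene can be named only where the study listed it as changed in these libraries. Counts and medians over such genes are therefore not independent evidence of a direction and cannot be read against those over all genes. Of 32 muscle regulators on the list, 13 besides Myod1 were named and tested. In ATG5KO, 10 of them rose, 1 fell and 2 did not pass the test, with a median log2 fold change of 1.54. Meox1, a homeobox factor of the somite, had 0 counts in all WT and VAMP7KO libraries and 48 to 73 counts in ATG5KO, at least 23.5-fold higher. Cdh15, the cadherin of myoblasts, rose at least 12.8-fold. Megf10, a receptor of muscle stem cells, had 1.52 ± 0.952 CPM in WT and 40.4 ± 26.1 CPM in ATG5KO, which is 4.73 on the log2 scale (SE 0.131, adjusted p = 2.32e-08, edgeR). Id4, which encodes an inhibitor of basic helix-loop-helix factors, fell from 4.99 ± 3.06 CPM to 1 count over the 4 ATG5KO libraries, at least 40.8-fold lower. The other myogenic factors of the Myod1 family, Myf5, Myog and Myf6, were not analysed here.

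Genes of the muscle fiber and its synapse were examined in the same way. Of 31 named and tested structural genes, 26 rose and 5 fell in ATG5KO, with a median log2 fold change of 1.83. Both counts were the same with any library left out. With no replicate block, however, the rises of Xirp1 (adjusted p = 0.0826, edgeR) and Myom2 (adjusted p = 0.0683, edgeR) did not pass. Des, the muscle intermediate filament, had 3.98, 4.08, 1.48 and 1.61 CPM in WT and 69.5, 70.5, 60.6 and 66.6 CPM in ATG5KO. The lines did not overlap, and the log2 fold change was 4.63 (SE 0.289, adjusted p = 2.03e-06, edgeR). Musk, the receptor kinase of the neuromuscular synapse, had 0.12 ± 0.0974 CPM in WT and 11.9 ± 3.81 CPM in ATG5KO, a log2 fold change of 6.61 (SE 0.332, adjusted p = 5.41e-07, edgeR). Unc45b, a myosin chaperone, rose at least 55.3-fold and Tmod4, which caps thin filaments, at least 13.2-fold. The 5 genes that fell were Mybpc1, Dmd, Xirp2, Cox6a2 and Ryr1. Dmd, which encodes dystrophin, had 102 to 159 counts in WT and 0 to 3 in ATG5KO, at least 36.3-fold lower. Ryr1, the calcium release channel, fell by 3.73 on the log2 scale (SE 0.507, adjusted p = 0.000266, edgeR). Mybpc1, a myosin-binding protein gene, had 205 and 251 counts in WT replicates 1 and 2 but 1 and 2 counts in replicates 3 and 4, and none in ATG5KO.

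In VAMP7KO, where Myod1 was at the floor, 7 of the 13 muscle regulators rose and 3 fell, with a median of 0.55, and of the 31 structural genes 11 rose and 3 fell, with a median of 0.31. Eya1, a coactivator of the muscle precursor, rose by 1.51 on the log2 scale (SE 0.0684, adjusted p = 1.17e-06, edgeR), and in ATG5KO by 1.23. Ryr1 was at 0.0627 ± 0.0976 CPM in VAMP7KO and 5.14 ± 2.35 CPM in WT, or -6.29 on the log2 scale (SE 0.657, adjusted p = 0.000181, edgeR). The count of muscle regulators that fell was 1 without WT replicate 1, 3 or 4 or VAMP7KO replicate 1, 2 or 4. With no replicate block, 2 regulators and 4 structural genes rose in VAMP7KO.

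**Figure D3:**
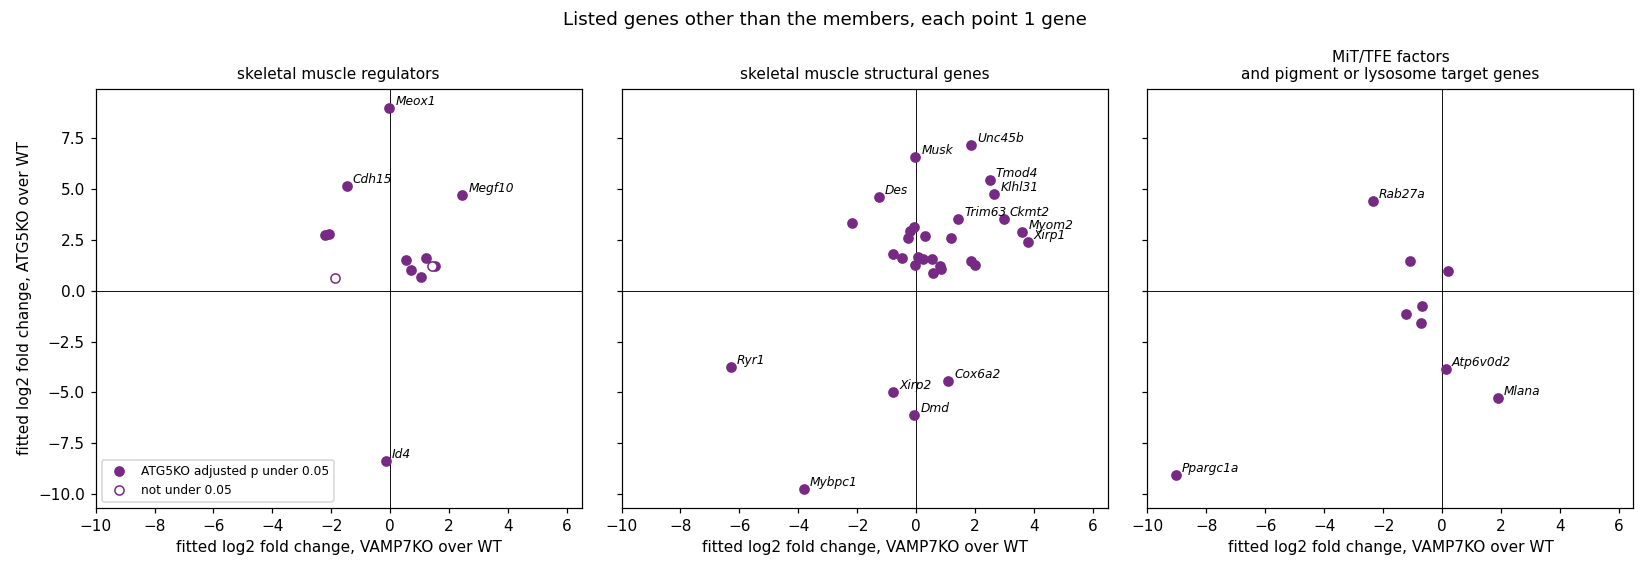
Fitted log2 fold change over WT in VAMP7KO (horizontal axis) and ATG5KO (vertical axis) for each named and tested gene of 3 lists, without the members. Filled points had an adjusted p under 0.05 in ATG5KO. In the middle panel 26 muscle structural genes lie above 0 and 5 below, and many of the points farthest out are genes at or near the floor in a line, where the fitted value depends on the prior count.

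Several genes on the muscle lists are also expressed in smooth muscle and fibroblasts, whose markers moved too. Of 9 named and tested smooth muscle markers, Des and Myocd among them, 7 rose in ATG5KO. In VAMP7KO 6 rose and 1, Des, fell, while Myocd did not pass the test. The fall of Des was lost without replicate 1 or 2 of WT or VAMP7KO. The summed level of the 9 markers was 839.5 to 936.9 CPM in ATG5KO, 430.4 to 485.9 CPM in WT and 723.6 to 1136 CPM in VAMP7KO. Tpm1 and Tpm2 were the largest parts of this sum in every line. They averaged 309.5 and 436.1 CPM in ATG5KO, 224 and 223.3 CPM in WT and 453.6 and 383.7 CPM in VAMP7KO. Acta2, smooth muscle actin, averaged 9.39 CPM in WT, 74.0 CPM in VAMP7KO and 8.73 CPM in ATG5KO, and Lmod1, at the floor in every WT library, averaged 11.8 CPM in ATG5KO. Fibroblast markers, with 12 tested, rose in 8 cases and fell in 2 in ATG5KO, and the 2 became 0 without WT replicate 1 or 2 or any ATG5KO library, and 1 without VAMP7KO replicate 4. In VAMP7KO 5 fibroblast markers rose and 3 fell. Their summed level was 4921 to 7127 CPM in WT, 4118 to 5818 CPM in VAMP7KO and 6685 to 8840 CPM in ATG5KO. In WT its largest parts were Col6a1 and Col6a2, at 2508 and 2466 CPM. The part of these cell types in the levels of Myod1 and Alx4 was not tested.

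The labels call the cells epithelial, while the study's text calls them fibroblastic in some places and epithelial in others. Of 9 named epithelial markers none was at the floor in all WT libraries, but their WT levels differed widely. Krt8, a keratin of simple epithelia and the highest, averaged 777 CPM in WT, 502 CPM in VAMP7KO and 688 CPM in ATG5KO. In WT Ppl averaged 310 CPM, Itgb4 27.8 CPM, Krt14 7.43 CPM and Cdh16 1.21 CPM. St14, Dsp, Evpl and Cgn were low there, at 0.566, 0.556, 0.129 and 0.103 CPM. Fibroblast genes were also detected in WT, such as Col6a1 at 2508 CPM and Col1a1 at 858 CPM. Others on that list were low in WT, such as Thy1 at 0.334 CPM and Dcn at 0.066 CPM, and Dpt was at the floor. Both lists held high and low markers in WT, so they did not single out 1 cell type. In VAMP7KO, where Barx2 was at the floor, 8 of the 9 epithelial markers fell. Dsp, Cgn and St14, low in WT already, were at the floor there. The fall of Cdh16 (adjusted p = 0.0499, edgeR) was lost with no replicate block. It was also lost without WT replicate 1, 3 or 4 or any VAMP7KO library. In ATG5KO, where Barx2 was low, 3 rose and 2 fell, the latter 1 without ATG5KO replicate 3 or 4. Immune markers summed to 89.2 to 182.1 CPM in WT, 51.2 to 63.3 CPM in VAMP7KO and 69.1 to 77.8 CPM in ATG5KO. Cd14 was the largest part, averaging 108 CPM in WT, 51.8 CPM in VAMP7KO and 44.3 CPM in ATG5KO. Ptprc, the common leukocyte antigen, averaged 7.70 CPM in WT and was at the floor in both knockouts, as Tfap2b and Tfec were. Of 11 immune markers tested, 1 rose and 6 fell in VAMP7KO, and 4 rose and 5 fell in ATG5KO, while of 6 endothelial ones 1 rose and 4 fell in VAMP7KO, and 2 rose and 2 fell in ATG5KO. The single immune rise was lost without WT replicate 2, 3 or 4 or VAMP7KO replicate 1, 2 or 4, and the single endothelial rise without WT replicate 1 or 2 or any VAMP7KO library. The targeted gene Vamp7 had 41.5 to 51.9 CPM in VAMP7KO and 108.6 to 115.8 CPM in WT, and Atg5 was not analysed here.

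For Tfec, the list of MiT factors with their pigment and lysosome targets held 9 other named and tested genes. In ATG5KO 3 rose and 6 fell (median log2 fold change -1.16), and in VAMP7KO 1 rose and 5 fell (median -0.73). Ppargc1a, a coactivator of mitochondrial genes and a target of Tfeb, had the pattern of Tfec itself, with 107, 106, 42 and 35 counts in WT and 0 counts in all 8 knockout libraries. It was at least 21.2-fold lower in VAMP7KO and at least 20.3-fold lower in ATG5KO, though DESeq2 gave adjusted p = 0.0775 and 0.0511. Mlana, a melanosome gene, moved in opposite directions, from 62.7 ± 43.7 CPM in WT to 208 ± 114 CPM in VAMP7KO (log2 fold change 1.89, SE 0.241, adjusted p = 0.000553, edgeR) and to 1.47 ± 0.83 CPM in ATG5KO (-5.28, SE 0.326, adjusted p = 1.91e-06, edgeR). With no replicate block its VAMP7KO value did not pass (adjusted p = 0.0942, edgeR). The 5 that fell in VAMP7KO were 2 without WT replicate 1 and 3 without VAMP7KO replicate 1 or 3. Mitf, Tfeb and Tfe3 were not analysed here.

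For Tfap2b, a list of 41 kidney tubule genes held 12 others that were named and tested, of which 3 rose and 5 fell in VAMP7KO and 5 rose and 4 fell in ATG5KO. Aqp1, the water channel of the proximal tubule, fell from 248 ± 106 CPM in WT to 5.77 ± 5.03 CPM in VAMP7KO and 19.7 ± 15.9 CPM in ATG5KO. Fxyd2, which encodes a subunit of the sodium pump, fell by 4.08 on the log2 scale in VAMP7KO (SE 0.567, adjusted p = 0.000878, edgeR) and had a log2 fold change of 0.36 in ATG5KO (SE 0.435, adjusted p = 0.523, edgeR). Kcnj16, a potassium channel gene of the distal tubule, had 0.64, 0.9, 0.033 and 0.036 CPM in WT replicates 1 to 4. VAMP7KO had 89.3, 107, 1.95 and 2.55 CPM, and ATG5KO had 10.6, 8.39, 2.15 and 1.84 CPM. Its level thus depended on the set in every line. With no replicate block its rise in ATG5KO did not pass (adjusted p = 0.0753, edgeR). In the main fit Aqp1 thus fell and Kcnj16 rose in both lines, while the list as a whole had no shared direction.

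Close relatives of the members could be named in 2 cases of 13 looked for. Tfap2e, an AP-2 gene like Tfap2b, had 0 counts in all WT and VAMP7KO libraries and 35, 65, 25 and 36 counts in ATG5KO, where Tfap2b had none. Its mean in ATG5KO was 1.61 ± 0.555 CPM, at least 15.7-fold above WT (adjusted p = 0.00216 in edgeR, 0.0624 in DESeq2). Alx1, a relative of Alx4 from the same mesenchyme, had its lowest level where Alx4 had its highest. Alx1 had 7.50, 6.47, 2.96 and 2.5 CPM in WT and 0.464, 0.416, 0.0359 and 0.0921 CPM in ATG5KO, a log2 fold change of -4.42 (SE 0.325, adjusted p = 5.91e-06, edgeR). VAMP7KO, with 5.71, 8.23, 1.73 and 1.40 CPM, overlapped WT, and its log2 fold change was -0.38 (SE 0.236, adjusted p = 0.278, edgeR).

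Among 18 other mesenchyme transcription factors 6 rose and 8 fell in VAMP7KO, and 6 rose and 7 fell in ATG5KO. Nkx2-5, a cardiac homeobox gene, had 1.49 ± 0.395 CPM in WT and 0 counts in VAMP7KO, at least 12.8-fold lower, and fell by 3.72 on the log2 scale in ATG5KO (SE 0.574, adjusted p = 0.00185, edgeR). Pitx1, a hindlimb homeobox gene, fell in both lines, by 1.45 in VAMP7KO (SE 0.261, adjusted p = 0.00344, edgeR) and at least 23.6-fold in ATG5KO. Tlx1 and Nkx2-3 were at the floor in VAMP7KO and rose in ATG5KO, by 2.57 (SE 0.376, adjusted p = 0.000417, edgeR) and 3.54 (SE 0.442, adjusted p = 0.000159, edgeR) on the log2 scale. Of 35 epithelial and other lineage factors 9 rose and 16 fell in VAMP7KO, and 18 rose and 12 fell in ATG5KO. Dach1, a developmental factor, was at the floor in both knockout lines like Tfap2b and Tfec, at least 18.3-fold above VAMP7KO and at least 17.5-fold above ATG5KO.

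The genes next to the members were looked up in RefSeq gene order, by a rule added after values were seen, since the counts carry no positions. Of the 100 genes within 10 places of a member, 10 had a known symbol and were tested, and each of these is on one of the study's lists. Tes, the next gene after Tfec, was detected in every library, at 134 ± 25 CPM in WT, 85.8 ± 2.91 CPM in VAMP7KO and 95.4 ± 12.2 CPM in ATG5KO, while Tfec was at 0 in both knockouts. Tes fell by 0.63 in VAMP7KO (SE 0.0994, adjusted p = 0.0018, edgeR) and 0.49 in ATG5KO (SE 0.099, adjusted p = 0.00287, edgeR) on the log2 scale. Cav2 and Met, the second and the fourth gene after Tfec, were also detected in every library. Met, a receptor tyrosine kinase gene, rose in ATG5KO by 1.67 (SE 0.155, adjusted p = 2.51e-05, edgeR), opposite to Tfec, and had a log2 fold change of 0.31 in VAMP7KO (SE 0.152, adjusted p = 0.178, edgeR), which passed without WT replicate 3 (0.45, adjusted p = 0.0453, edgeR). Cav2 had log2 fold changes of 0.68 in VAMP7KO (adjusted p = 0.0612, edgeR) and 0.42 in ATG5KO (adjusted p = 0.157, edgeR). The VAMP7KO value passed in the DESeq2 test (adjusted p = 0.012) and with the set as block (adjusted p = 0.031, edgeR). It also passed with every gene kept, and without replicate 3 or 4 of WT or VAMP7KO. In replicates 1 and 2 Cav2 had 104.1 and 104.1 CPM in WT and 242.4 and 299.3 CPM in VAMP7KO. In 3 and 4 it had 205.3 and 182.5 CPM in WT and 200 and 187.7 CPM in VAMP7KO. In WT, Cav2 and Met were higher in replicates 3 and 4, by 0.9 and 1.05 on the log2 scale. Foxp2, the fourth before Tfec, fell by 0.89 in VAMP7KO (SE 0.187, adjusted p = 0.00754, edgeR) and 0.74 in ATG5KO (SE 0.186, adjusted p = 0.00864, edgeR) on the log2 scale. Gpr85, the sixth before it, was at the floor in ATG5KO, at least 21.3-fold below WT, and had a log2 fold change of -0.02 in VAMP7KO (SE 0.559, adjusted p = 0.982, edgeR). Both values of Gpr85 depended on the set, since in WT it had 4.96 CPM in replicates 1 and 2 and 0.255 CPM in 3 and 4 (log2 ratio -4.25, SE 0.332, adjusted p = 5.54e-09, edgeR). The bound in ATG5KO was 40.8-fold in replicates 1 and 2 and 2.07-fold in 3 and 4. In VAMP7KO its level was 2.75 CPM in replicates 1 and 2, below WT, and 0.749 CPM in 3 and 4, above WT.

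Around Barx2, Adamts15, St14 and Fli1 were tested, and all 3 fell in VAMP7KO (adjusted p = 0.00112, 0.00045 and 0.00312, edgeR). Adamts15 fell by 5.08 on the log2 scale, and St14 and Fli1, at the floor there, were at least 4.84-fold and 4.68-fold lower, with the bound for Fli1 at 7.27-fold in replicates 1 and 2 and 2.05-fold in 3 and 4. In ATG5KO Adamts15 was at the floor, at least 28.4-fold below WT. In WT, however, Adamts15 had 6.51 CPM in replicates 1 and 2 and 0.447 CPM in 3 and 4 (log2 ratio -3.86, SE 0.336, adjusted p = 4.05e-08, edgeR), so its bound in ATG5KO was 53.5-fold in replicates 1 and 2 and 3.63-fold in 3 and 4, and in VAMP7KO it was at least 55.2-fold lower in replicates 1 and 2 and 4.45-fold lower in 3 and 4. In ATG5KO St14 and Fli1 were higher than in WT, by 1.04 (adjusted p = 0.0216, edgeR) and 1.27 (adjusted p = 0.026, edgeR). Both of these ATG5KO calls were lost without single libraries, with adjusted p up to 0.0916 for St14 without ATG5KO replicate 3 and 0.101 for Fli1 without WT replicate 4, and with no replicate block. Crisp3, the tenth gene before Tfap2b, fell from 373 ± 150 CPM in WT to 8.37 ± 8.27 CPM in VAMP7KO and 39.5 ± 20.8 CPM in ATG5KO. Accsl, the third after Alx4, rose in ATG5KO by 2.61 on the log2 scale (SE 0.452, adjusted p = 0.0011, edgeR), and no neighbor of Myod1 was tested.

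**Figure D4:**
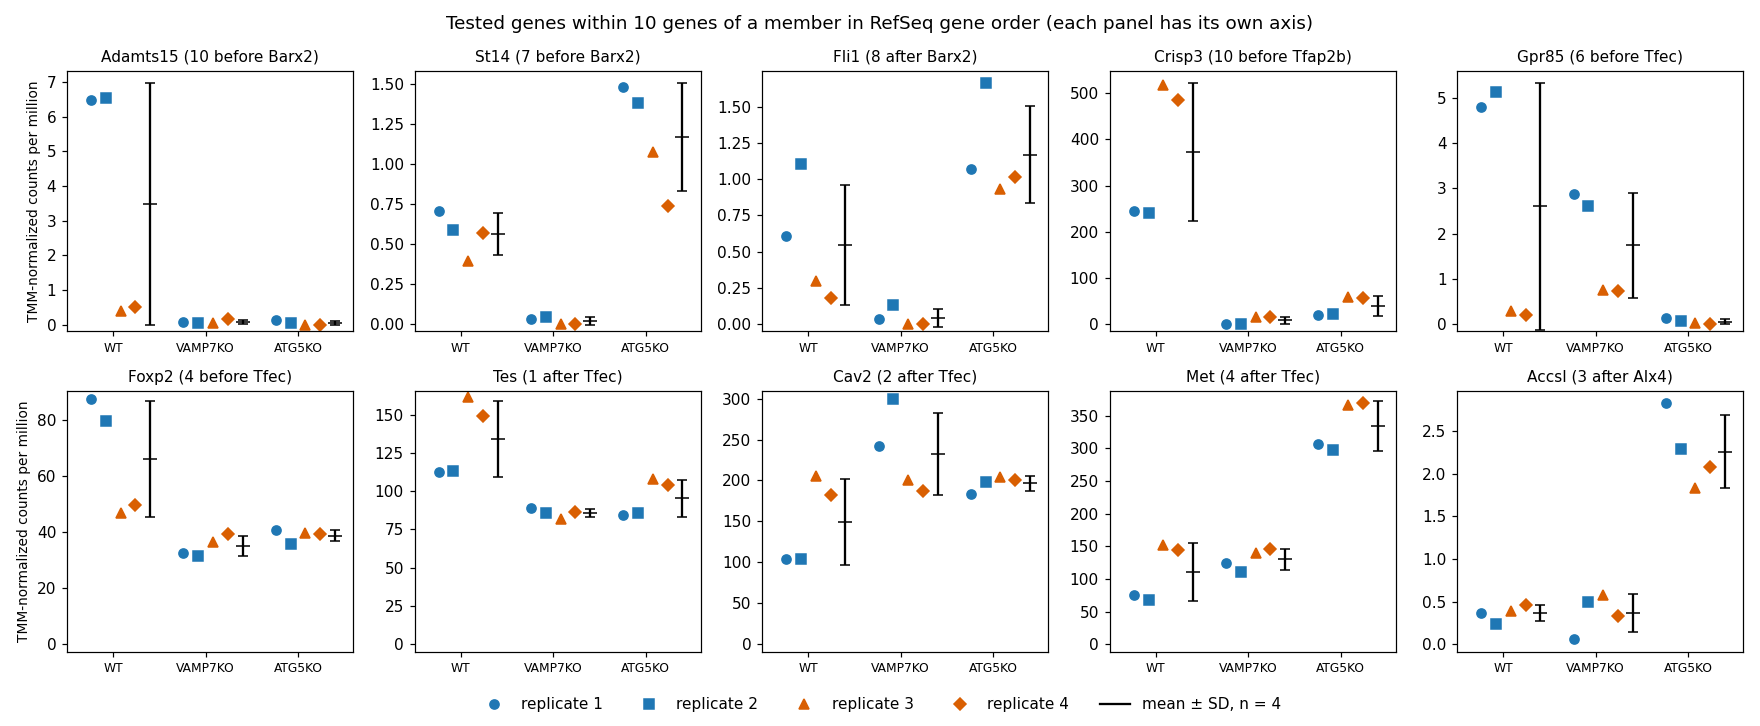
Level in every library of the 10 tested genes that lie within 10 genes of a member in RefSeq order, in CPM on a linear axis that differs between panels. Points are libraries, with replicates 1 and 2 in blue and 3 and 4 in orange, and the bar is the mean ± SD of 4 replicates. Tes, Cav2 and Met are detected in all 12 libraries, and Adamts15 is high in WT replicates 1 and 2.

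The named genes whose levels followed a member most closely were ranked by Pearson's r of log2 CPM over the 12 libraries. The libraries share genotype groups and replicate sets, so such values describe the patterns and carry no test. Barx2 was followed by Ryr1 (r = 0.985), Cacna1d (0.984) and Birc3 (0.984), and Tfap2b by Cntn5, Rtl8a and Tph2 (0.997 each). Tfec was followed by Slc27a6 (0.998), Dach1 (0.998) and Trpa1 (0.997). Slc27a6, for a fatty acid transporter, had 659, 592, 61 and 71 counts in WT and none in the knockouts, the same split between replicates as Tfec. Alx4 was followed by Il23r (0.996), Slc1a3 (0.994) and Igfbp7 (0.992). Igfbp7, for a secreted protein, had 8.31, 8.42, 12.7 and 12.3 CPM in ATG5KO and 0 counts elsewhere, with the higher values in replicates 3 and 4. Myod1 was followed by Kcnj9, Pdpn and Vcam1 (0.995 each), and Vcam1, for an adhesion molecule that myoblasts carry, had 9.68 ± 0.697 CPM in WT, 4.25 ± 0.816 CPM in VAMP7KO and 230 ± 40.9 CPM in ATG5KO.

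The number of genes with r over 0.95, named or not, was 33 for Barx2, 92 for Tfap2b, 77 for Tfec, 157 for Alx4 and 282 for Myod1. Between members, r was 0.968 for Tfap2b and Tfec, 0.961 for Alx4 and Myod1, 0.948 for Barx2 and Tfap2b and 0.933 for Barx2 and Tfec. Across these 2 groups r lay between -0.492 and -0.105.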

How the data were processed

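The values deposited by the authors are raw read counts per gene (htseq-count 0.13.5, Ensembl 110), from reads trimmed with cutadapt 4.2, cleared of rRNA (bowtie 2.2.8) and aligned to mRatBN7.2 (STAR 2.7.10b). A tab missing from the header was restored, and columns were matched to the labels by name. Symbols for 1976 genes came from the study's 2 supplementary lists, whose fold changes and p-values were not used. The members, gene lists and replicate sets were chosen with earlier results of these data known.

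The 13141 genes kept by filterByExpr were fitted with edgeR 4.0.16 (limma 3.58.1, R 4.3.3; TMM, glmQLFTest, Benjamini-Hochberg adjustment, threshold 0.05), all 12 libraries in 1 fit, blocked on replicate number. Equal-numbered libraries deviated together from their genotype means (r 0.622 to 0.75), but so did those of the same set with other numbers (0.578 to 0.753). Set tests used 6 cells of genotype and set, without the block. The study calls the replicates independent without saying how cultures were divided, so the spread may be technical in part. The code was tested on simulated data.

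Named genes were the 4 highest and 4 lowest called genes of each list and comparison, relatives of the members and the 3 genes most like each (log2 of CPM plus 0.5). Neighbors and markers given by name were chosen after values were seen, and some genes that the rule names are not reported here. Alternatives were DESeq2's size factors, the DESeq2 1.42.0 Wald test, every gene with at least 1 count, no replicate block, the set as block and each library left out. Each set alone was used for the levels and folds of the members.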

Additional observations from a re-analysis of the deposited data

Results flagged for a closer look

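Among 175 groups of 4 libraries that were above the floor for a member or a named gene, 5 held a library farther from the other 3 than Dixon's 95% limit allows, where chance gives about 1 group in 20. No group of a member was among them. The limit cannot find a group in which replicates 1 and 2 lie apart from 3 and 4, like Tfec in WT. Each library there has another close to it, so evenness is not read from this count. In ATG5KO, Meox1 was high in 1 library at 3.39 CPM, Smad9 was high at 3.55 CPM and Trpm1 was low at 0.743 CPM. In WT, Nkx2-5 was high in 1 library at 2.08 CPM. In VAMP7KO, Vcam1 was low in 1 library at 3.04 CPM.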

How the results depend on the processing

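For the members, the 12 folds between lines and the 15 mean levels moved by less than 1 SD of the replicates under each alternative run. A mean level could not fail this limit with 1 library left out or 1 set alone, since the SD came from the same libraries. Stability is therefore not read from those runs. For Tfec, the bound of WT over VAMP7KO was 105-fold in replicates 1 and 2 and 18.3-fold in 3 and 4. Both were within 1 SD (51.9) of the bound over all replicates (62.1-fold), and that SD holds this split. The 7 set ratios kept their side of the threshold in runs that kept every library of the sets compared. Over all runs the set ratio of Tfec in WT was between -2.81 and -2.35 and that of Myod1 in ATG5KO between -0.63 and -0.51. Counts over all genes depended on a term for the replicates, by number or by set: with no replicate block 1024 genes were called in VAMP7KO against WT, 3102 in ATG5KO against WT and 2997 in VAMP7KO against ATG5KO, beside 3004, 6081 and 5903 with it and 3554, 6527 and 6289 with the set as block in place of the replicate number. With 1 library left out these counts were 1923 to 3224, 5057 to 6047 and 4906 to 5964, the lowest of the first without VAMP7KO replicate 1, and 1954 were called without WT replicate 1. With no replicate block 5 epithelial markers fell in VAMP7KO in place of 8, and 2 smooth muscle markers rose in place of 6. Of 3026 values for other named genes under alternatives, 142 were no longer past the threshold, 20 newly passed and none reversed. Runs on each set alone were not among these. By set, Gpr85 in VAMP7KO lay below WT in replicates 1 and 2 and above it in 3 and 4. Cox6a2 had 38.3 and 47.3 CPM in VAMP7KO and 3.51 and 4.4 CPM in WT in replicates 1 and 2. In 3 and 4 Cox6a2 had 11.1 and 12 CPM in VAMP7KO and 31.7 and 31.6 CPM in WT. Depth limits a statement of 0 counts to about 0.1 CPM per library, and each knockout is 1 clone.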
